A study of Mus musculus with 51 samples.

Results

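Interferon-stimulated genes are the genes that a cell switches on when interferon, a cytokine released on virus infection, binds its receptors. This account describes 41 of them, picked by name as well-known members of the response, in mouse stromal cell lines that differ in how well they keep blood stem and progenitor cells in culture. A gene was taken as measured where a probe set, the array's unit of measurement, named it and no other gene. By that rule 38 of the 41 were measured, among 19938 genes in all, each by 1 probe set. Isg15 and Gbp2 were covered only by probe sets that name several genes, and Ifi44 had no probe set listed, so these 3 are not given values here.

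Type I and type III interferons act through Jak1 and Tyk2 kinases on a complex that holds Stat2 and Irf9 and binds an element called the interferon-stimulated response element (ISRE). Type II interferon acts mainly at another element, the gamma-activated site (GAS). Irf7 raises interferon production further, and Usp18 holds the receptor's signal back. The products sense foreign nucleic acid, block viral replication, tag proteins with ubiquitin or ADP-ribose, load peptides on MHC class I and call in lymphocytes. In bone marrow and fetal liver, interferons also act on blood stem cells themselves.

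RNA from 51 samples was hybridised to 51 arrays, 3 for each of 17 groups, and the values were log2 signals. The study asked which genes distinguish lines that support hematopoietic stem and progenitor cells from lines that do so less or not. Each line is taken to stand for 1 isolate of its tissue, though a clone number is not given for every line. UG26.1B6 (supportive) and UG26.3B5 (less supportive) came from the aorta-gonad-mesonephros region (AGM) of (CBAxC57BL/10)F1 embryos at embryonic day 11, as did AM14-1C4 and AM30-3F4, both supportive. AFT024 (supportive) and BFC012 (not supportive) came from C57BL/6 fetal liver (FL) at embryonic day 14.5, as did 2012 (supportive), AFT011 (not supportive) and a line labelled BFC without a clone number (not supportive). BMC9 (supportive) and BMC10 (less supportive) came from adult bone marrow (BM) of H2ts6 mice, which carry a temperature-sensitive SV40 large T antigen under the H-2Kb promoter, itself responsive to interferon. 14F1-1 (supportive) came from adult BALB/c bone marrow and OP9 (supportive) from calvaria of (C57BL/6xC3H)F2-op/op mice, which lack functional M-CSF. Confluent cultures were kept at 33 °C, except 14F1-1 and 2 of the 3 OP9 samples, labelled 37 °C. In a second experiment AFT024 and BFC012 were grown for 4 days, some of them with c-Kit+Sca1+Lin- (KLS) cells of bone marrow, a fraction rich in stem and progenitor cells, and the stroma was then sorted as CD45-negative. No group is labelled as treated with interferon. Whether the 3 samples of a group came from separate cultures is not labelled. The p-values cover no more than the spread among samples within groups, which may be technical. In the main fits that spread is pooled per gene over all confluent or all sorted groups. A standard error therefore also reflects lines outside the comparison.

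The 51 arrays had been normalized in 4 sets, and levels are set side by side only within a set. The first held 18 arrays (UG26, AFT024, BFC012 and BMC lines), the next 6 (OP9 and BFC), another 12 (the sorted stroma) and the last 15 (14F1-1, 2012, AFT011 and the AM lines). In every group 5 to 8 of 9 stromal markers lay above the array median, as did 0 or 1 of 15 hematopoietic, 0 of 6 endothelial and 1 or 2 of 4 epithelial markers. The first quartile of all probe sets lay at 5.45, 3.77, 4.37 and 5.67 in the sets in that order, and a difference against a level below it, where signal is weak, is not given as a fold. All tests used limma with Benjamini-Hochberg adjustment over 19938 genes and an adjusted p threshold of 0.05. A difference is on the log2 scale with its standard error, and "higher" or "lower" in a count means past that threshold.

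Promoter sequence gives the context in which these genes are read. RefSeq promoter entries (GRCm38.p6, 250 bases before to 50 after the start) were found for 31 of the 41 genes, in 35 entries, and searched on both strands. The ISRE core GAAANNGAAA matched 14 of the 31 genes, against 3.99% of 27025 gene symbols with an entry. The GAS core TTCNNNGAA matched 6 of the 31, against 9.55% of those symbols. Both elements were found in Bst2 and Eif2ak2. A match describes letters and does not show that a factor binds. Shown here are stretches of 100 bases for 7 genes with an ISRE match that are described below, and for Ifit2, which has none. They were picked to show the element, and some are also genes with large differences. Cxcl10, Ifit1 and Trim30a each have the largest difference of a comparison below. Capitals mark the ISRE matches, which read as TTTCNNTTTC where the element lies on the other strand.

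Ifit1 (chr19:34640749-34640848, plus strand): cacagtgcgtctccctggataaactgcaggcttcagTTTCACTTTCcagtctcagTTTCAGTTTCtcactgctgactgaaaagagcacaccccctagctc
Ifit3 (chr19:34583349-34583448, plus strand): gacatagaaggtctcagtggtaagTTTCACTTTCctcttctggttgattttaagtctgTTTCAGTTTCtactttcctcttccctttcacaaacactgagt
Ddx60 (chr8:61927987-61928086, plus strand): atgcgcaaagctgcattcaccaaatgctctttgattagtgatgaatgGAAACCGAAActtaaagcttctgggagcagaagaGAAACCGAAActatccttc
Rsad2 (chr12:26456513-26456612, minus strand): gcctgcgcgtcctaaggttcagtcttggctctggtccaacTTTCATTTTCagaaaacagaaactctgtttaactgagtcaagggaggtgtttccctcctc
Cxcl10 (chr5:92349040-92349139, minus strand): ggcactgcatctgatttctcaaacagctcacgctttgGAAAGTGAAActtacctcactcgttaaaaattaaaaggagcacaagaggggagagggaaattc
Trim30a (chr7:104465194-104465293, minus strand): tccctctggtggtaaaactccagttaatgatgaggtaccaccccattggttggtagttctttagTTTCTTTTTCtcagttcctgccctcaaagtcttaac
Stat2 (chr10:128270248-128270347, plus strand): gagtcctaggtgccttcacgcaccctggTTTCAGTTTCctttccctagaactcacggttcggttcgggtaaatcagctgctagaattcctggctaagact
Ifit2 (chr19:34550594-34550693, plus strand): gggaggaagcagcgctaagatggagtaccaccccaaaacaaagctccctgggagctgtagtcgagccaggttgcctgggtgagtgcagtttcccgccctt

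Ifit1, Ifit3 and Ddx60 each held 2 matches in the stretch shown, and Rsad2, Cxcl10, Trim30a and Stat2 held 1. Ifit2, a neighbour of Ifit1 and Ifit3 on chromosome 19, held none in its 300-base window, which says only that these letters are not in this window.

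The median level of the 38 genes gives a first view of the lines, as a description. AFT024 stood highest of the first set, with array medians of 8.93, 7.32 and 7.61, and BMC9 next, with 8.03, 7.23 and 7.45. The 2 UG26 lines, BFC012 and BMC10 had group medians of 6.46 to 6.92. AM14-1C4 stood apart in the last set, with a group median of 8.07 ± 0.03 (SD, n = 3), against 6.56 to 6.85 in AM30-3F4, 14F1-1, 2012 and AFT011. OP9 had a group median of 5.18 ± 0.02 and BFC 4.59 ± 0.04 (SD, n = 3 each). Gene by gene, 29 of the 38 had their highest group mean of the first set in AFT024, and 22 had that of the last set in AM14-1C4. Array 1 of AFT024, its replicate 1, was the highest of its 3 arrays for 36 of the 38 genes and array 1 of BMC9 for 31, so the comparisons of these lines are also given without those arrays where a count or call changed.

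**Figure D1:**
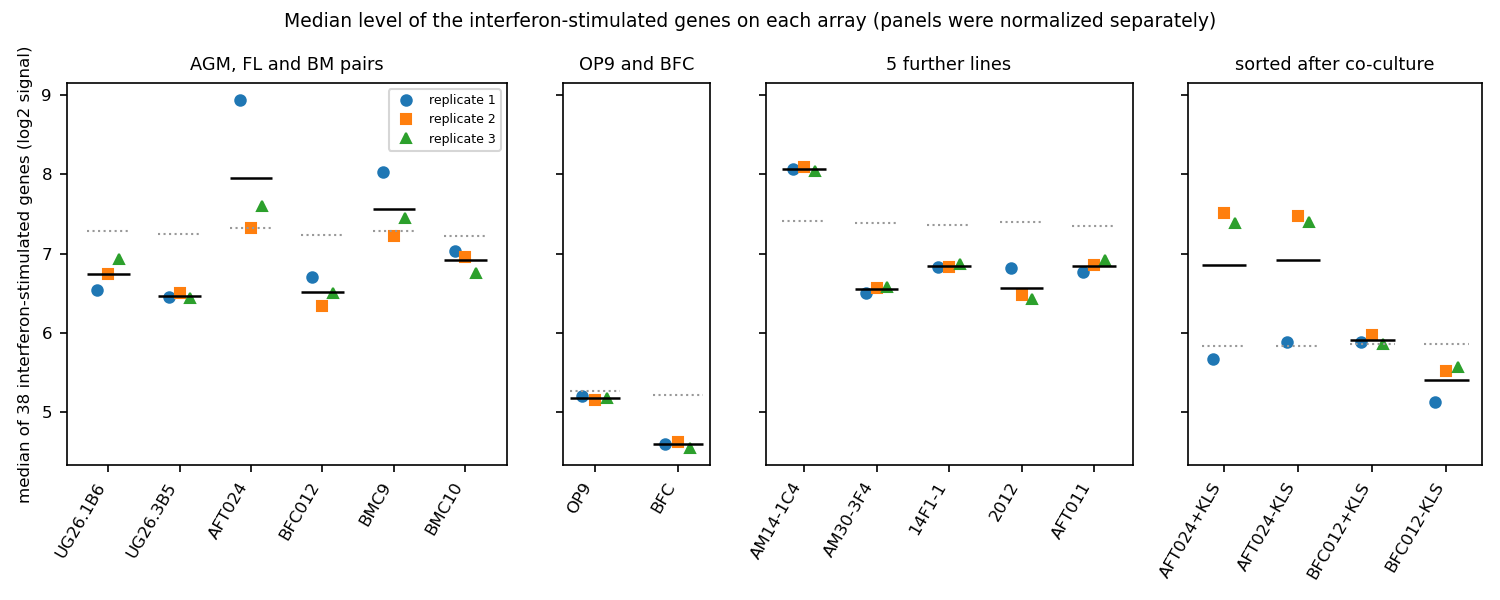
Median log2 level of the 38 interferon-stimulated genes on each array (points, by replicate) with the group mean (black line) and the median of all genes (dotted line), in 4 panels for the 4 normalization sets, whose levels are not comparable with each other. AFT024 and BMC9 stand highest of the first set with array 1 above the other arrays, and AM14-1C4 stands highest among the AM lines, 14F1-1, 2012 and AFT011.

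**Figure D2:**
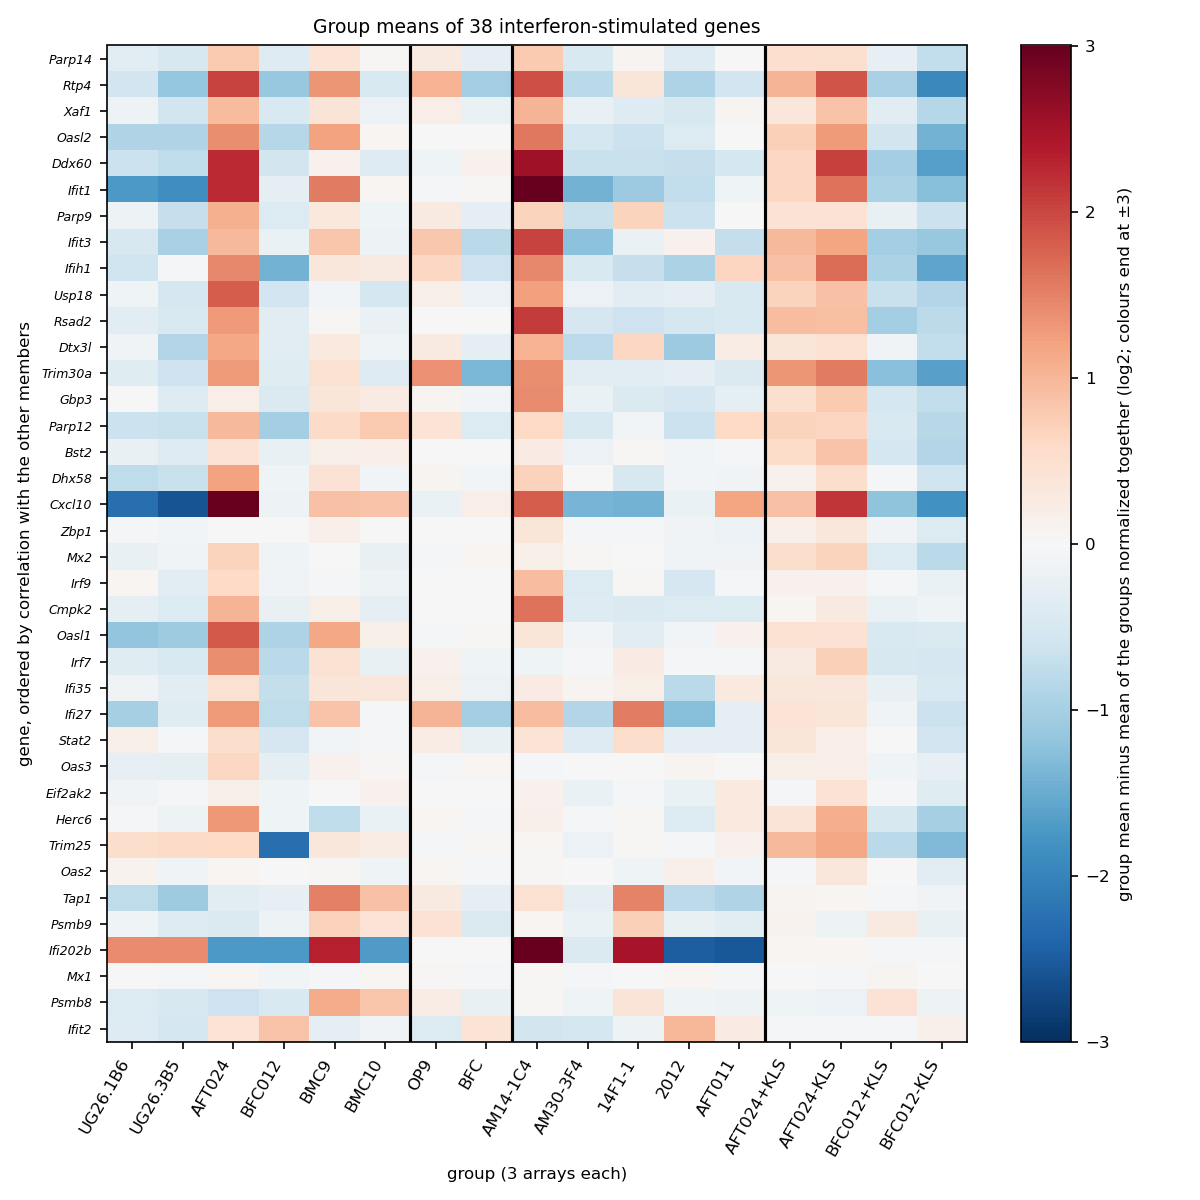
Group means of the 38 genes (rows, ordered by likeness to the other genes) in the 17 groups (columns), as log2 difference from the mean of the groups of the same normalization set. Most rows are highest in AFT024 among the first 6 columns and in AM14-1C4 among the 5 lines normalized with it, while Ifi202b, Psmb8 and Psmb9 near the bottom follow other groups.

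In confluent AFT024, 29 of 38 genes were higher than in BFC012 and 0 lower, where 15.6% of all genes were higher and 12.9% lower. The median difference of the 38 was 1.28, against -0.02 over all genes. All 5 signalling and feedback regulators were higher, as were 11 of 14 antiviral effectors, 3 of 6 sensors, all 6 ADP-ribosylation and ubiquitin genes, Cxcl10, Ifi35, Ifi27 and Xaf1. None of the 3 antigen processing genes passed the test, with differences of -0.27 to -0.06. The epithelial markers moved with this comparison: 1 of 4 lay above the array median in AFT024, with a median of 6.09 to 6.24 over the 4, and 2 of 4 in BFC012, with 7.17 to 7.26. Their part in the result was not tested. In bulk RNA fewer cells of a kind and less RNA per cell cannot be told apart, here and below.

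The chemokine Cxcl10 (probe set 10531415), which draws lymphocytes through the receptor CXCR3, read 12.82, 12.67 and 12.45 in AFT024, against 9.16, 8.88 and 9.65 in BFC012. Every AFT024 array stood above every BFC012 array, a difference of 3.41 ± 0.18 or 10.7-fold (adjusted p = 8.81e-17). Rtp4, a chaperone of membrane receptors with antiviral activity, read 9.65, 8.16 and 7.82 in AFT024, against 5.75, 5.09 and 5.29 in BFC012 (difference 3.17 ± 0.25, adjusted p = 1.75e-12). The groups did not overlap, with array 1 the highest of AFT024. Trim25 is a ubiquitin ligase that activates the RNA sensor RIG-I. It read 10.13, 9.92 and 9.73 in AFT024, against 7.09, 7.08 and 7.01 in BFC012, so the BFC012 arrays were alike and uniformly low (difference 2.87 ± 0.09, adjusted p = 2.82e-23).

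RNA helicases and a synthetase-like gene came next. Ifih1, the sensor of long double-stranded RNA known as MDA5, read 9.44, 8.72 and 9.34 in AFT024, against 6.63, 5.99 and 6.32 in BFC012 (difference 2.86 ± 0.15). Ddx60, a helicase that assists such sensors, read 8.91, 6.92 and 6.90 in AFT024, against 4.90, 4.70 and 4.77 in BFC012 (difference 2.79 ± 0.27). Oasl1, an oligoadenylate synthetase-like protein that limits Irf7 translation in mice, differed by 2.78 ± 0.16. Groups did not overlap for any of these 3. Among the transcription factors, Irf7 read 10.33, 7.34 and 8.28 in AFT024, against 6.51, 6.33 and 6.50 in BFC012, a difference of 2.20 ± 0.38 (adjusted p = 1.62e-05). Irf9 differed by 0.72 ± 0.17 (adjusted p = 0.00095). Stat2 differed by 1.03 ± 0.30 (adjusted p = 0.00884), with 10.58, 9.26 and 8.44 in AFT024 overlapping 8.24, 8.27 and 8.68 in BFC012. Ifit2 had the lowest difference, -0.44, which did not pass.

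Array 1 of AFT024 carried part of the size but not most of the calls. Without it 25 of the 38 genes were higher and 1 lower, where 13.3% of all genes were higher and 11.7% lower, and the median difference was 0.85. The gene then lower was Ifit2, which binds viral RNA, at -0.66. Stat2 no longer passed, at 0.45 (adjusted p = 0.237), while Irf7 at 1.36 and Irf9 at 0.41 did.

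**Figure D3:**
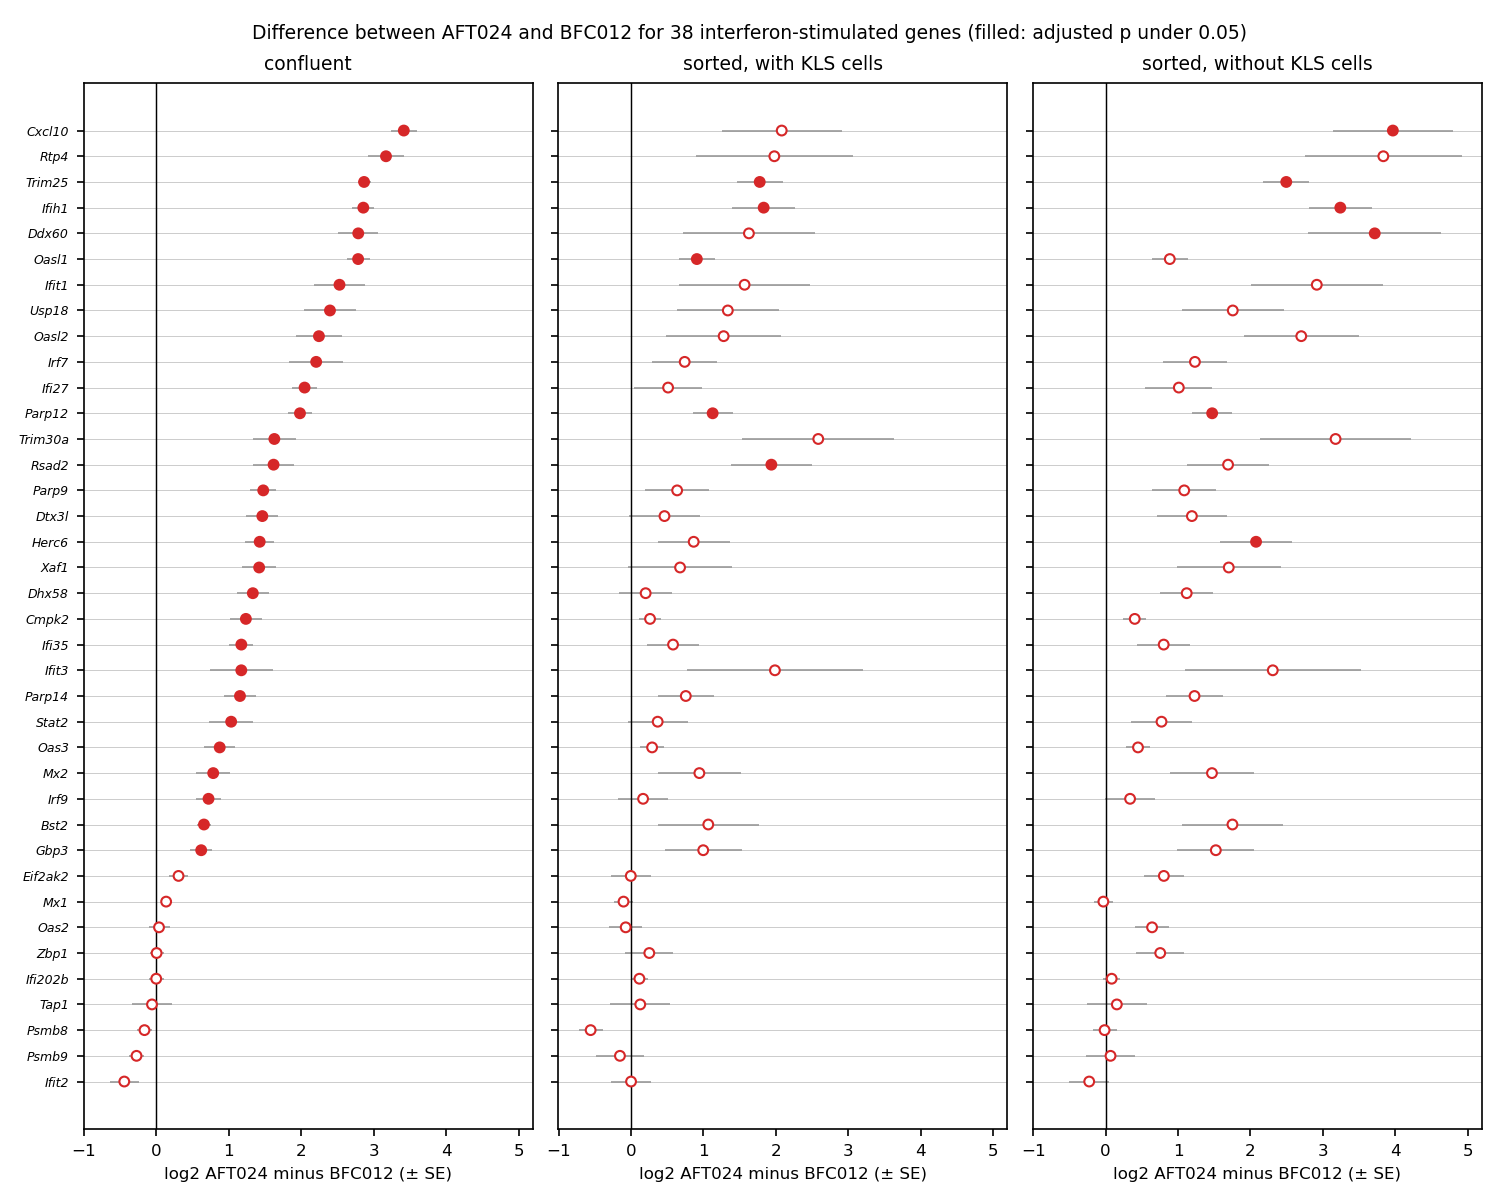
AFT024 minus BFC012 for each of the 38 genes (log2 difference ± SE; filled points passed the test), in confluent cultures and in stroma sorted with and without KLS cells. Cxcl10, Rtp4, Trim25, Ifih1, Ddx60 and Oasl1 lie at 2.78 to 3.41 in confluent cultures, and the standard errors are wider in the sorted panels.

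Among 47 other interferon-inducible genes measured, 22 were higher in AFT024 and 1 lower. They included Samd9l, an antiviral restriction factor, at 2.76, the chemokine Ccl5 at 2.70, the secreted glycoprotein gene Lgals3bp at 2.62 and Sp100 of the nuclear bodies at 2.08. Of 40 interferon and upstream pathway genes 10 were higher and 4 lower. The endosomal RNA receptor Tlr7 differed by 1.72 and Ddx58, which encodes RIG-I, by 1.25, while the type III interferon receptor gene Ifnlr1 differed by -1.19. Of 16 MHC class I and antigen processing genes 8 were higher and 0 lower, with the peptide-loading genes Tapbp at 1.37 and Tapbpl at 1.19.

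The same genes parted the 2 AM lines, which are both labelled supportive. In AM14-1C4 26 of 38 were higher than in AM30-3F4 and 0 lower, where 15.9% of all genes were higher and 15.8% lower. The median difference was 1.14, against 0.01 over all genes. By role, 3 of 5 regulators, 5 of 6 sensors, 9 of 14 effectors, 5 of 6 ADP-ribosylation and ubiquitin genes, 1 of 3 antigen processing genes and Cxcl10 were higher. Groups did not overlap for 32 of the 38 genes, where 50.3% of all genes did not.

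Ifit1 (probe set 10462623), which binds viral RNA lacking the host cap methylation, read 10.55, 10.51 and 10.46 in AM14-1C4, against 5.68, 5.90 and 5.54 in AM30-3F4. The difference was 4.80 ± 0.35 (adjusted p = 3.73e-13), with the AM30-3F4 arrays near the first quartile of the set. Ifi202b (probe set 10360398), a DNA-binding protein of an interferon-inducible family, read 10.13, 9.94 and 9.89 in AM14-1C4, against 6.50, 6.60 and 6.59 in AM30-3F4 (difference 3.42 ± 0.10). Ifit3, the partner of Ifit1, read 9.30, 9.54 and 9.40 in AM14-1C4, against 5.91, 6.30 and 6.25 in AM30-3F4 (difference 3.26 ± 0.44). For each of these 3 genes the AM14-1C4 arrays lay close together and far above all AM30-3F4 arrays. Cxcl10 differed by 3.22 ± 0.18, Ddx60 by 3.20 ± 0.27 and Rtp4 by 2.75 ± 0.25.

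The transcription factors did not move together in this pair. Irf9 was higher by 1.32 (adjusted p = 7.43e-08). Stat2 differed by 0.79 (adjusted p = 0.0446) and lost its call without any 1 of the 6 arrays (adjusted p 0.074 to 0.106) and under quantile normalization (adjusted p = 0.0514). It read 8.77, 8.83 and 8.74 in AM14-1C4, against 8.06, 7.96 and 7.93 in AM30-3F4, without overlap. Its standard error of 0.30 pools the spread of all confluent lines, the widely spread AFT024 arrays among them. Irf7 read 6.15, 6.15 and 6.12 in AM14-1C4, against 6.20, 6.29 and 6.12 in AM30-3F4, a difference of -0.06 that did not pass (adjusted p = 0.95). Of the 47 other interferon-inducible genes 25 were higher and 2 lower, with Ccl5 at 4.55 and Ifi203, of the same family as Ifi202b, at 3.06. Of the 16 MHC class I genes 7 were higher and 0 lower, and of the 40 upstream genes 8 were higher and 5 lower.

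Single markers of another lineage, above all Lyz2, moved with this comparison. The summed linear signal of the 15 hematopoietic markers was 1583 to 1788 on AM14-1C4 arrays, against 962 to 1012 on AM30-3F4 arrays. Their median log2 level differed little, at 5.96 to 6.10 in AM14-1C4 and 5.90 to 5.93 in AM30-3F4. Lyz2, a myeloid lysozyme gene, averaged 9.36 in AM14-1C4 and 5.37 in AM30-3F4. The integrin gene Itgb2 averaged 7.16 in AM14-1C4 and 6.01 in AM30-3F4. The pan-leukocyte gene Ptprc averaged 5.51 in AM14-1C4 and 5.58 in AM30-3F4. Of the 15 markers 1 lay above the array median in AM14-1C4 and 0 in AM30-3F4. Their part in the result was not tested.

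**Figure D4:**
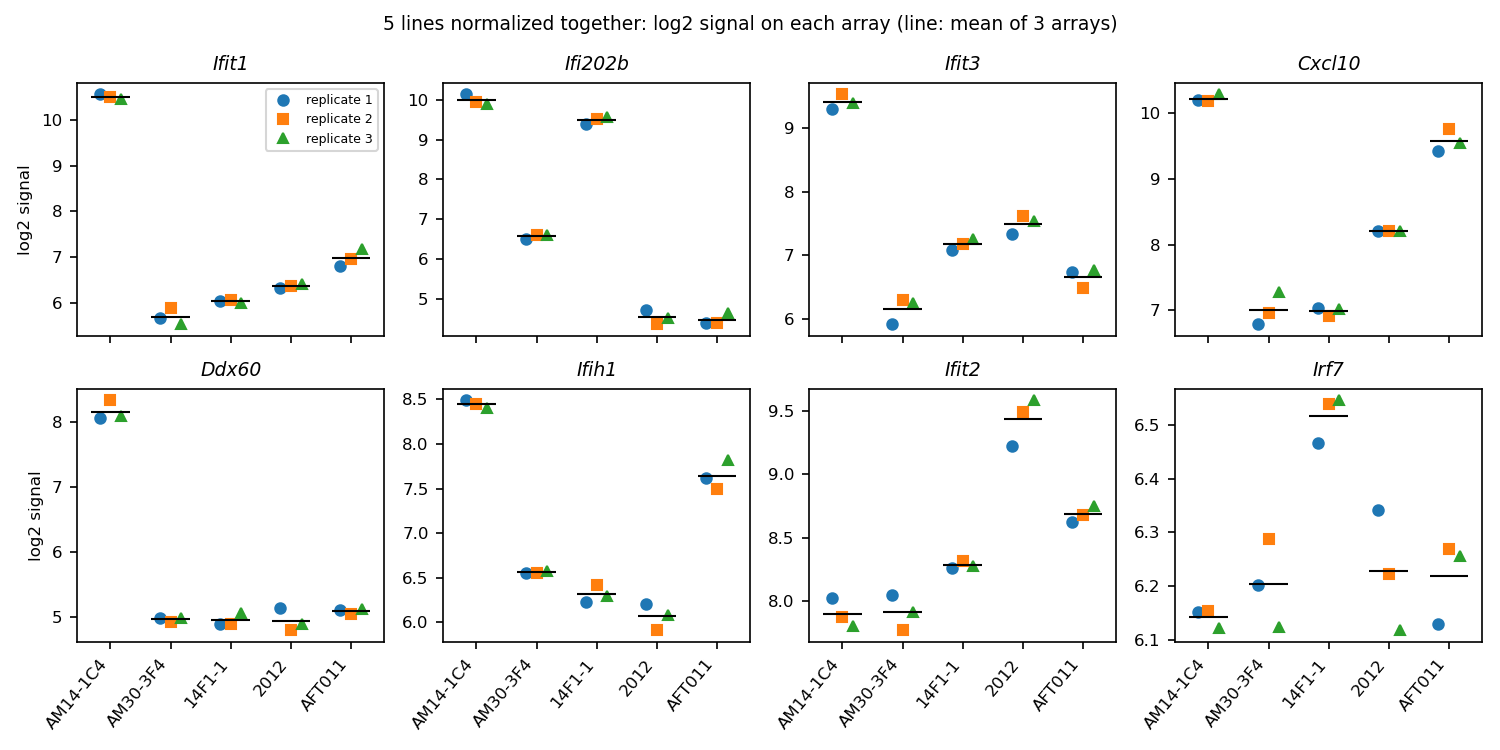
Log2 signal of 8 of the genes on each array of AM14-1C4, AM30-3F4, 14F1-1, 2012 and AFT011 (points, by replicate), with the mean of 3 arrays (line). The 3 AM14-1C4 arrays stand above the AM30-3F4 arrays for Ifit1, Ifi202b and Ifit3, and Irf7 overlaps between the 2 AM lines.

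The fetal liver and AM pairs share no arrays. Of the 29 genes higher in AFT024 23 were also higher in AM14-1C4, which is 79.3% of the 29 and 88.5% of the 26. Herc6, Ifi35, Irf7, Mx2, Oas3 and Trim25 were called in the fetal liver pair alone, and Ifi202b, Tap1 and Zbp1 in the AM pair alone; these differences between pairs were not tested. The measured levels of the interferon genes themselves hardly differed. Of 12 interferon genes listed 10 were measured, and 1 of their 160 tests over the 16 comparisons passed, Ifna12 in OP9 against BFC, at 0.46 (adjusted p = 0.00599). Their largest absolute difference was 0.15 in the confluent fetal liver pair and 0.17 in the AM pair. Of the 10 genes 7 lay above the median of all genes on 0 of 51 arrays. Ifnb1, for example, read 4.21 to 4.75 in the first set, below its first quartile of 5.45. Small differences at such weak signal do not show that the transcripts were level between lines. RNA levels of these probe sets also do not measure secreted interferon.

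The bone marrow pair differed in fewer of the genes. In BMC9 6 of 38 were higher than in BMC10 and 0 lower, where 7.28% of all genes were higher and 8.18% lower, and the median difference was 0.28. Ifi202b read 8.12, 8.24 and 7.82 in BMC9, against 4.15, 4.03 and 3.96 in BMC10. The difference was 4.01 ± 0.10 with no overlap (adjusted p = 4.19e-25), and the BMC10 arrays lay below the first quartile of 5.45. Rtp4 read 7.92, 7.95 and 7.64 in BMC9, against 6.49, 5.86 and 5.85 in BMC10 (difference 1.77 ± 0.25). Ifit1 read 10.07, 8.86 and 8.64 in BMC9, against 8.55, 7.55 and 6.99 in BMC10 (difference 1.49 ± 0.35, adjusted p = 0.00252). In both genes all BMC9 arrays stood above all BMC10 arrays, by a small margin for Ifit1. The synthetase-like genes Oasl2 at 1.15 and Oasl1 at 0.96 and Ifi27, strongly induced by type I interferon, at 0.89 made up the rest. Oasl2 lost its call without BMC9 array 1 (adjusted p = 0.0642) or BMC10 array 3 (adjusted p = 0.0659). Without BMC9 array 1 the count was 6 higher and 2 lower, and without BMC9 array 3 it was 9 higher and 0 lower. The share of all genes in these fits is not given. None of Irf7 at 0.68, Irf9 and Stat2 passed.

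Replicate numbers paired the BMC9 and BMC10 arrays. With the replicate number as a block 16 genes were higher and 0 lower, where 5.12% of all genes were higher and 5.49% lower. Ifi203, another gene of the family, differed by 3.10 in the same direction as Ifi202b, and 7 of the 47 other inducible genes were higher and 3 lower, with Sp100 at -1.03. Of the 16 MHC class I genes 1 was higher and 3 lower.

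The UG26 pair was nearly level. In UG26.1B6 1 of 38 genes was higher than in UG26.3B5 and 2 lower, where 4.34% of all genes were higher and 4.22% lower. Dtx3l, a ubiquitin ligase that works with Parp9, read 6.76, 6.76 and 6.92 in UG26.1B6, against 6.09, 6.12 and 5.94 in UG26.3B5 (difference 0.76 ± 0.22, adjusted p = 0.0251). Ifi27 read 6.46, 6.72 and 6.95 in UG26.1B6, against 7.17, 7.38 and 7.52 in UG26.3B5 (difference -0.64 ± 0.18). Ifih1 read 7.14, 7.20 and 7.03 in UG26.1B6, against 7.58, 7.71 and 7.80 in UG26.3B5 (difference -0.57 ± 0.15). None of the 3 genes overlapped between the lines, yet none kept its call in every fit with 1 array left out. Without UG26.3B5 array 3 the count was 0, and without UG26.1B6 array 2 or 3 it was 1, given without the share of all genes. With the replicate number as a block, which paired these arrays, 10 were higher and 2 lower, where 5.63% of all genes were higher and 5.49% lower. Irf9 at 0.38 did not pass without the block (adjusted p = 0.185) and passed with it (adjusted p = 0.0314). Stat2 at 0.22 and Irf7 at 0.09 passed in neither fit.

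Lines of the 3 tissues were compared as means of 2 lines each, so a difference may rest on 1 line of a pair. In the UG26 lines 2 of 38 genes were higher than in the fetal liver lines AFT024 and BFC012 and 27 lower, where 19% of all genes were higher and 18.8% lower. Groups did not overlap for 5 of the 38 genes, where 11.1% of all genes did not. Cxcl10 read 6.93, 7.27 and 7.15 in UG26.1B6 and 6.59, 7.02 and 6.74 in UG26.3B5, below every fetal liver array given above (difference -3.99 ± 0.13). Ifit1 read 5.43 to 6.45 in the UG26 lines, against 6.88 to 10.78 in the fetal liver lines (difference -2.76). Oasl1 at -1.58 and Ddx60 at -1.54 were lower too, with Ddx60 levels in BFC012 close to those of the UG26 lines.

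The 2 genes higher in the UG26 lines were Ifi202b and Trim25. Ifi202b averaged 7.15 in both UG26.1B6 and UG26.3B5, against 3.90 to 4.13 on the fetal liver arrays, below the first quartile (difference 3.15). Trim25 read 9.77 to 9.95 in the UG26 lines, level with the AFT024 arrays and above the BFC012 arrays (difference 1.40). Ifi202b is known to be low in C57BL/6 mice, the strain of both fetal liver lines, and the part of strain was not tested. Irf9 at -0.39 and Irf7 at -0.70 (adjusted p = 0.0363) were lower, and Stat2 at 0.04 did not pass. Without AFT024 array 1 2 genes were higher and 22 lower, given without the share of all genes. Neither Irf9 (adjusted p = 0.0587) nor Irf7 (adjusted p = 0.252) then passed. Irf7 also lost its call without UG26.1B6 array 1 or 2, UG26.3B5 array 1 or BFC012 array 1 or 3 (adjusted p 0.0586 to 0.0822).

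Against the bone marrow lines, 3 of 38 genes were higher in the UG26 lines and 21 lower, where 16.1% of all genes were higher and 17.5% lower. The median difference was -0.51, against -0.02 over all genes. Cxcl10 read 6.59 to 7.27 in the UG26 lines, against 9.81 to 10.81 in the bone marrow lines (difference -3.30 ± 0.13), and Ifit1 differed by -2.60 ± 0.25. The peptide transporter gene Tap1 read 6.56 to 7.23 in the UG26 lines, against 8.37 to 9.60 in the bone marrow lines (difference -2.11 ± 0.20). All 3 antigen processing genes were lower, with the immunoproteasome gene Psmb8 at -1.43, as were 13 of the 16 other MHC class I and antigen processing genes, with 0 higher. The class I gene H2-Q4 differed by -1.39, the peptide trimming gene Erap1 by -1.38, Tapbp by -1.15 and Tap2 by -0.95. Oasl1 at -1.79 and Oasl2 at -1.53 were lower, whereas Ifi202b at 1.10, Herc6 at 0.39 and Trim25 at 0.28 were higher. Irf7 at -0.51, Irf9 at -0.03 and Stat2 at 0.13 did not pass.

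Upstream, the DNA sensor gene Cgas differed by -1.92 and Irf1 by -0.87, while Irf5 differed by 1.57 and the kinase gene Jak2 by 1.05. Of the 40 upstream genes 12 were higher and 8 lower, and of the 47 other inducible genes 2 were higher and 28 lower, with Ccl5 at -2.15.

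The fetal liver lines against the bone marrow lines gave no common direction. Of 38 genes 8 were higher in the fetal liver lines and 9 lower, where 15.9% of all genes were higher and 17.5% lower. The antigen processing genes were lower, all 3 of them, with Psmb8 at 5.57 to 5.85 in the fetal liver lines, against 7.03 to 7.55 in the bone marrow lines (difference -1.51). Tap1 at -1.47, Ifi202b at -2.05 and Trim25 at -1.12 were lower as well. The ISG15 ligase gene Herc6 at 1.07, Ddx60 at 0.98 and Irf9 at 0.36 (adjusted p = 0.0181) were higher, and Irf7 at 0.18 and Stat2 at 0.09 did not pass. The median difference was 0.07 with all arrays and -0.14 without AFT024 array 1, when 5 genes were higher and 12 lower. With 1 array left out the count of higher genes ran from 5 to 13, given without the share of all genes. It was 13 without AFT024 array 2, with 8 lower, and 12 without AFT024 array 3 or BMC9 array 1, with 9 and 8 lower. It was 5 without BMC9 array 2 or 3, with 9 lower. Same-numbered arrays paired between AFT024 and BMC9 but not between the other lines of this comparison, and with a block on the number 6 genes were higher and 9 lower. Irf9 lost its call without AFT024 array 1 (adjusted p = 0.118) or BMC9 array 2 or 3 (adjusted p = 0.0654 and 0.0554). These 3 tissue comparisons share lines, and line, strain and tissue cannot be told apart in them.

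OP9 against BFC showed another set of leading genes. In OP9 9 of 38 were higher and 1 lower, where 17.5% of all genes were higher and 16.9% lower, and the median difference was 0.14. Trim30a (probe set 10566358), an inhibitor of NF-kB signalling in mice, read 7.35, 7.15 and 7.18 in OP9, against 4.40, 4.55 and 4.55 in BFC (difference 2.73 ± 0.30, adjusted p = 2.65e-09). Rtp4 read 6.60, 6.43 and 6.26 in OP9, against 4.05, 4.60 and 4.43 in BFC (difference 2.07 ± 0.25). Ifi27 read 7.97, 8.17 and 8.04 in OP9, against 6.06, 5.88 and 6.13 in BFC (difference 2.04 ± 0.18). All OP9 arrays stood above all BFC arrays in these 3 genes. Ifit3 at 1.61, Ifih1 at 1.22 and the immunoproteasome gene Psmb9 at 0.85 were higher, and Ifit2 at -0.81 was lower. Irf7 at 0.24, Stat2 at 0.44 and Irf9 at -0.04 did not pass. Of the 47 other inducible genes 21 were higher and 3 lower, with Samd9l at 3.86, Lgals3bp at 2.48 and the GTPase gene Iigp1 at 1.71. The OP9 sample labelled 33 °C read 5.18 for the median of the 38 genes, between 5.20 and 5.16 in the 2 labelled 37 °C.

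In the other fetal liver pair most of the genes did not pass. In 2012, the line labelled supportive, 1 of 38 genes was higher than in AFT011 and 10 lower, where 13.4% of all genes were higher and 14.1% lower. The median difference was -0.11, against 0.07 over all genes. Ifih1 read 6.21, 5.91 and 6.08 in 2012, against 7.62, 7.49 and 7.82 in AFT011 (difference -1.58). Cxcl10 read 8.20 on each array of 2012, against 9.43, 9.76 and 9.55 in AFT011 (difference -1.38). Dtx3l read 6.22, 6.03 and 6.18 in 2012, against 7.50, 7.30 and 7.56 in AFT011 (difference -1.31). Each of these genes was lower on all 2012 arrays. Parp12, which ADP-ribosylates proteins, at -1.25, Ifi35 at -1.09 and Ifi27 at -0.99 followed, as did 4 of 6 ADP-ribosylation and ubiquitin genes in all. Ifit2 was higher, at 0.75. Irf9 was lower at -0.48 (adjusted p = 0.031), a call lost without 2012 array 1 or 3 or AFT011 array 1 or 3 (adjusted p 0.0553 to 0.202).

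14F1-1, from adult BALB/c marrow, had 12 of 38 genes higher than 2012 and 2 lower, where 18.1% of all genes were higher and 18.5% lower. Ifi202b read 9.38, 9.51 and 9.57 in 14F1-1, against 4.72, 4.35 and 4.52 in 2012. The difference was 4.95 ± 0.10, and the 2012 arrays lay below the first quartile of 5.67. Ifi27 read 9.53, 9.44 and 9.70 in 14F1-1, against 6.85, 6.54 and 6.78 in 2012 (difference 2.83). Tap1 read 9.50, 9.41 and 9.73 in 14F1-1, against 7.35, 7.25 and 7.22 in 2012 (difference 2.27). All 3 antigen processing genes were higher, as were 9 of the 16 other class I genes with 1 lower, among them H2-Q4 at 2.38, Tap2 at 1.66 and H2-M3 at 1.43.

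Dtx3l at 1.72, Parp9 at 1.33 and Rtp4 at 1.29 were also higher in 14F1-1. Cxcl10 at -1.22 and Ifit2 at -1.15 were lower. Irf9 at 0.54 (adjusted p = 0.00941) was higher, and Irf7 at 0.29 did not pass. Stat2 at 0.79 (adjusted p = 0.0389) lost its call without any 1 of the 6 arrays (adjusted p 0.0519 to 0.118). It read 8.75, 8.99 and 8.94 in 14F1-1, against 7.96, 8.23 and 8.11 in 2012, without overlap, and its standard error again pools all confluent lines. Ifi203 differed by 4.09, Samd9l by 2.80 and the DNA-signalling adaptor gene Sting1 by -3.18. The line, its strain, its tissue and its culture at 37 °C cannot be told apart.

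The AM lines together had 22 of 38 genes higher than 2012 and 1 lower, where 16.2% of all genes were higher and 15.3% lower, with a median difference of 0.60. Groups did not overlap for 10 of the 38, where 23.6% of all genes did not. Ifi202b differed by 3.75 from these low 2012 levels, Ifit1 by 1.73, Ddx60 by 1.62, Rtp4 by 1.49 and Ifih1 by 1.44. Ifit2 was the gene that was lower, with 7.77 to 8.05 in the AM lines, against 9.22, 9.49 and 9.58 in 2012 (difference -1.53). Irf9 at 0.77 was higher.

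In the sorted experiment array 1 stood apart in 3 of the 4 groups. Over all genes, array 1 correlated at 0.975 to 0.977 with the other arrays of sorted AFT024 without KLS cells, which correlated at 0.996 with each other. Array 1 of AFT024 with KLS cells did so at 0.976 and 0.977, against 0.994 between the others. Array 1 of BFC012 without KLS cells did so at 0.973 and 0.972, against 0.995 between the others. The median of the 38 genes was 5.67, 7.51 and 7.39 in AFT024 with KLS cells and 5.88, 7.48 and 7.40 in AFT024 without. It was 5.89, 5.98 and 5.86 in BFC012 with KLS cells and 5.13, 5.52 and 5.57 in BFC012 without. Array 1 was the lowest of its group for 34, 38 and 26 of the 38 genes in AFT024 with KLS cells, AFT024 without and BFC012 without. A set of 6 genes was chosen after its values on these arrays were seen, so it cannot test the line labels. Of the 6, 5 did not overlap between the lines on the 12 arrays. Among the 5 the imprinted gene Peg10 read 9.44 to 10.2 in AFT024 and 4.72 to 5.19 in BFC012. The gene that overlapped was the butyrylcholinesterase gene Bche. It read 4.07 on array 1 of AFT024 with KLS cells and 7.59 to 8.65 on the other AFT024 arrays, against 3.87 to 4.12 in BFC012. The main counts of each sorted comparison are therefore given with and without array 1 of all 4 groups.

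**Figure D5:**
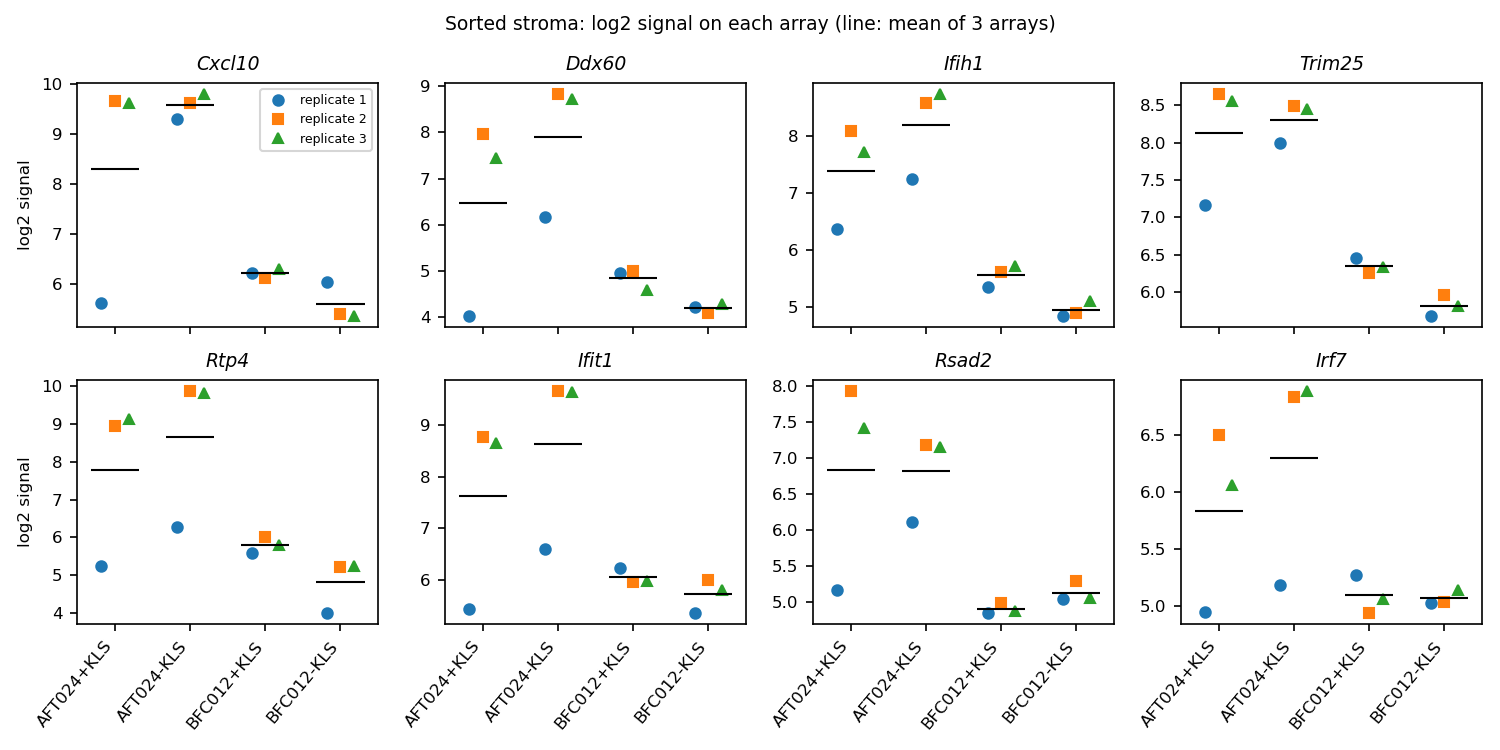
Log2 signal of 8 of the genes on each array of the 4 sorted groups (points, by replicate), with the mean of 3 arrays (line). Array 1 of both AFT024 groups lies below arrays 2 and 3 for all 8 genes shown.

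Sorted AFT024 grown without KLS cells had 6 of 38 genes higher than sorted BFC012 and 0 lower, where 3.51% of all genes were higher and 3.81% lower, with a median difference of 1.21. Cxcl10 read 9.30, 9.61 and 9.79 in AFT024, against 6.04, 5.40 and 5.36 in BFC012 (difference 3.96 ± 0.83, adjusted p = 0.015). Ddx60 read 6.17, 8.83 and 8.73 in AFT024, against 4.21, 4.09 and 4.29 in BFC012 (difference 3.71 ± 0.92, adjusted p = 0.0326). Ifih1 read 7.25, 8.59 and 8.74 in AFT024, against 4.85, 4.91 and 5.11 in BFC012 (difference 3.24 ± 0.44, adjusted p = 0.00138). The groups did not overlap in these genes even with array 1. Trim25 at 2.49 ± 0.32, Herc6 at 2.08 ± 0.50 and Parp12 at 1.47 ± 0.28 were the others. Irf7 at 1.23 did not pass (adjusted p = 0.131), but did with the replicate number as a block (adjusted p = 0.0406). Without array 1 of the sorted groups 32 of 38 were higher and 0 lower, where 9.93% of all genes were higher and 9.39% lower, with a median difference of 1.60.

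The count moved with single arrays, given here without the share of all genes. It was 26 without array 1 of AFT024 and 3 without array 2 or 3 of AFT024 or array 2 or 3 of BFC012. Cxcl10, Ddx60 and Herc6 were the calls then lost. With the replicate number as a block, which paired these arrays, 24 genes were higher and 0 lower, where 8.01% of all genes were higher and 7.79% lower. In the fit without array 1, Rtp4 led with 4.62 ± 0.11, from 9.87 and 9.83 in AFT024, against 5.21 and 5.25 in BFC012. Trim30a at 4.57 came from 10.26 and 10.22 in AFT024, against 5.85 and 5.50 in BFC012. Ddx60 at 4.59, Cxcl10 at 4.32, Ifit1 at 3.75 and Oasl2 at 3.67 were close behind.

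With KLS cells in the culture, 5 of 38 genes were higher in sorted AFT024 than in sorted BFC012 and 0 lower, where 6.09% of all genes were higher and 5.52% lower, with a median difference of 0.71. Rsad2, which encodes viperin, read 5.16, 7.93 and 7.42 in AFT024, against 4.84, 4.98 and 4.88 in BFC012 (difference 1.94 ± 0.56, adjusted p = 0.0473). Ifih1 read 6.38, 8.09 and 7.73 in AFT024, against 5.36, 5.62 and 5.73 in BFC012 (difference 1.83 ± 0.44, adjusted p = 0.0197). Trim25 read 7.17, 8.65 and 8.56 in AFT024, against 6.45, 6.26 and 6.33 in BFC012 (difference 1.78 ± 0.32, adjusted p = 0.00429). Array 1 was the lowest of AFT024 in all 3 and still above the BFC012 arrays. Parp12 at 1.13 and Oasl1 at 0.91 completed the list. The count was 12 without array 1 of AFT024 and 1 without any 1 of the other 5 arrays, again without the share of all genes.

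Without array 1 of the sorted groups 31 genes were higher and 1 lower, where 12.8% of all genes were higher and 11% lower, with a median difference of 1.23. Cxcl10 led with 3.42, followed by Trim30a at 3.27, Rtp4 at 3.14, Ifit3 at 2.99, Ddx60 at 2.91 and Ifit1 at 2.75. The AFT024 array 1 left out went the other way for most of these genes. Cxcl10 read 5.61 on it, against 6.12 to 6.31 in BFC012, and Rtp4 5.24, against 5.58 to 6.00. Ifit3, Ddx60 and Ifit1 also lay below all BFC012 arrays on it, and Trim30a, at 7.09, lay above them. With all arrays groups did not overlap for 7 of the 38 genes, where 32.1% of all genes did not. Ifih1, Trim25 and Parp12 were the 3 genes that passed with all arrays in the confluent and both sorted comparisons of the 2 lines. All 29 genes higher in confluent AFT024 were among the 32 and among the 31 without array 1, which is 90.6% and 93.5% of those counts. With so many of the 38 called, a large overlap follows from the counts, and the same share over all genes is not given.

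Adding KLS cells gave no call in either line with all arrays. In AFT024 0 of 38 genes passed in limma in either direction, where 0.296% of all genes were higher and 0.0552% lower. In BFC012 0 passed, where 0.612% of all genes were higher and 0.271% lower. An unadjusted limma p below 0.05 was found for 0 of the 38 in AFT024 and 1 in BFC012. The share of all genes at that unadjusted threshold is not given. The median difference was -0.19 in AFT024 and 0.37 in BFC012. For 20 of the 38 genes the BFC012 groups with and without KLS cells did not overlap, where 17.3% of all genes did not. Of the 38 differences 33 were positive, against 45.8% over all genes. These medians, overlaps and signs are given with all arrays only. Array 1 of BFC012 without KLS cells was the lowest of its group for 26 of the 38 genes. Cxcl10 read 6.21, 6.12 and 6.31 in BFC012 with KLS cells, against 6.04, 5.40 and 5.36 without.

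Without array 1 of the sorted groups calls appeared in both lines. In AFT024 0 genes were higher with KLS cells and 12 lower, where 3.41% of all genes were higher and 2.65% lower. Trim30a at -1.12, Ddx60 at -1.08, Ifit1 at -0.94, Xaf1 at -0.82, Rtp4 at -0.81 and Ifih1 at -0.75 led them. Ddx60 read 7.96 and 7.44 with KLS cells, against 8.83 and 8.73 without, so both arrays were lower. In BFC012 9 genes were higher with KLS cells and 1 lower, where 4.2% of all genes were higher and 3.71% lower. Cxcl10 at 0.83, Oasl2 at 0.74, Rtp4 at 0.67, Ifih1 at 0.67, Parp14 at 0.57 and Parp12 at 0.50 led these, and Ifit2 at -0.47 was the lower one. Ptprc, which encodes CD45, read 4.23 to 4.44 in sorted stroma with KLS cells, against 4.25 to 4.32 without.

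The 2 responses were compared directly as the KLS effect in AFT024 minus that in BFC012. With all arrays 0 of 38 genes passed in limma, where 0.01% of all genes were higher and 0.0301% lower. The median of the 38 was -0.50. Of the 38 genes 2 had an unadjusted limma p below 0.05, a count given without its share of all genes. Without array 1 of the sorted groups 0 were higher and 11 lower, where 1.41% of all genes were higher and 1.54% lower. Ddx60 at -1.68, Rtp4 at -1.48, Ifih1 at -1.42, Oasl2 at -1.38 and Trim30a at -1.30 were the largest of these. Leaving out the 4 arrays numbered 1 leaves 2 arrays a group.

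Across all 17 groups the 38 genes varied partly together. The Pearson correlation of a gene's group means, centred per normalization set, with the mean of the other genes is given as a description over 17 groups that share lines and arrays. It was highest for Parp14 at 0.98, Rtp4 at 0.97, Xaf1 at 0.96, Oasl2 at 0.95 and Ddx60 at 0.91. It was lowest for Ifit2 at -0.24, Psmb8 at 0.14, Mx1 at 0.17, Ifi202b at 0.18 and Psmb9 at 0.21. Over the 16 comparisons Ifih1 and Parp12 passed in 11 each, Ifi27 in 10 and Cxcl10 in 9. The GTPase gene Mx1 and the oligoadenylate synthetase gene Oas2 passed in 0, and the kinase gene Eif2ak2, which encodes PKR, in 1. Mx1 stayed between 4.19 and 4.58 in the first set, below the first quartile of 5.45. It lay above the array median on 0 of 51 arrays, so its low correlation and lack of calls come from weak signal levels. The gene is known to be defective in most laboratory strains, a point not tested here. Probe sets of Ifi202b, Ifit3 and other genes with near-identical copies may pick up signal from a relative, which was not tested.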

How the data were processed

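Signals were measured on Affymetrix mouse gene 1.0 ST arrays from 100 ng of Trizol-extracted, biotin-labelled RNA, per the labels' protocols. The deposited values are log2 signals per probe set, for which the submitters' processing notes name RMA and Partek; versions are not given in the sources used here, and the authors' arrays were all used. Of 35556 probe sets, 21789 named 1 symbol, 1621 several and 12146 none; the highest-mean probe set of each gene left 19938 genes, unfiltered. Equal quantiles marked 4 normalization sets.

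limma 3.58.1 in R 4.3.3 fitted 1 model to the 39 confluent and 1 to the 12 sorted arrays, two-sided, with Benjamini-Hochberg adjustment, and was tested on simulated data. Alternatives were other fits, normalizations, probe set rules and arrays left out; array number, 3 a group, limits precision. Replicate numbers paired arrays of the UG26 (correlations of same-numbered deviations 0.53, 0.33, 0.47), BMC (0.32, 0.12, 0.44) and sorted lines without KLS cells (0.67, 0.52, 0.47), and AFT024 with BMC9 (0.53, 0.37, 0.43), which were not compared as a pair.

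The genes and lists were chosen with earlier results of these data known. Named genes are the 6 largest differences past the threshold per comparison, Irf7, Stat2, Irf9, up to 4 of each other list, genes against the majority, and the likeness extremes. Sequences are RefSeq's (GRCm38.p6).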

Additional observations from a re-analysis of the deposited data

Results flagged for a closer look

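The difference between AFT024 and BFC012 was set against that between the UG26 lines and between the BMC lines, by a test of the difference of differences in the limma fit (adjusted p under the threshold of 0.05), added after the data were seen. The AM pair, also from the AGM, was normalized in another set and is not in the test. Against the UG26 pair, AFT024 minus BFC012 exceeded UG26.1B6 minus UG26.3B5 for 24 of 38 genes, where 13.2% of all genes were higher. It fell short for 1, Psmb9, where 2169 of 19938 genes were lower. The excess was 3.42 for Ifih1, 3.08 for Cxcl10, 2.92 for Trim25, 2.89 for Oasl1, 2.67 for Ddx60, 2.58 for Rtp4 and 2.11 for Irf7. Against the BMC pair, it exceeded BMC9 minus BMC10 for 16 genes, where 14% of all genes were higher. It fell short for 3, Ifi202b, Psmb8 and Psmb9, where 2283 of 19938 genes were lower. The excess was 3.40 for Cxcl10, 2.79 for Ifih1, 2.74 for Trim25, 2.27 for Ddx60, 1.82 for Oasl1, 1.53 for Irf7 and 1.40 for Rtp4. Both tests use the same AFT024 and BFC012 arrays and are given with all arrays only. Without AFT024 array 1, AFT024 minus BFC012 itself was 1.36 for Irf7 and 3.33 for Cxcl10. Groups of 3 arrays are too small for a test of single outlying samples.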

How the results depend on the processing

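Counts are of the 38 genes past the threshold in either direction. Most come without the share of all genes called in the same fit, which may have moved too. A changed count is therefore not read as particular to the 38 genes. Quantile normalization, the mean of all probe sets and leaving out dim genes kept all 16 counts within 1.5 times. Fitting the compared groups alone gave 5 for the UG26 pair, 17 for OP9 against BFC and 17 for 2012 against AFT011. With a replicate block added it gave 12 for the UG26 pair, 16 for the BMC pair, 16 for OP9 against BFC, 17 for 2012 against AFT011 and 24 for the sorted lines without KLS cells; the OP9 and 2012 numbers did not pair. The block on all 12 sorted arrays (chosen after seeing the data) gave 15 for the sorted lines without KLS cells. Array weights gave 8 for the UG26 pair, 19 for 2012 against AFT011, 31 for the sorted lines without and 23 with KLS cells, and 1 for KLS cells in AFT024 and 1 in BFC012. Without replicate 1 of the sorted groups the counts were 32 for the sorted lines without and 32 with KLS cells, 12 for KLS cells in AFT024, 10 in BFC012 and 11 for the interaction, and with a replicate block (also chosen after seeing the data) 32, 32, 14, 13 and 13 in that order.

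Leaving out 1 array gave 0 to 2 for the UG26 pair, 26 to 30 for the confluent fetal liver pair, 5 to 9 for the BMC pair, 22 to 25 for UG26 against BMC lines, 14 to 21 for fetal liver against BMC lines, 24 to 29 for UG26 against fetal liver lines, 9 to 11 for OP9 against BFC, 8 to 12 for 2012 against AFT011, 12 to 14 for 14F1-1 against 2012, 22 to 25 for the AM pair and 18 to 22 for the AM lines against 2012. In the sorted experiment it gave 3 to 26 without KLS cells, 1 to 12 with them, 0 to 1 for KLS cells in AFT024, 0 to 0 in BFC012 and 0 to 1 for the interaction. Of the 86 differences of named genes that had passed, 0 changed sign under any alternative; named genes that had not passed were not followed. The cause was not tested. The block also changed single calls, of Irf9 and Irf7 among others, as given above.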
